A study of Drosophila melanogaster with 8 samples.

Results

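The genes described here are 10 components of the *Drosophila* phototransduction cascade, measured by RNA sequencing of fly heads. They are *norpA*, *trp*, *trpl*, *inaC*, *inaD*, *ninaC*, *Arr1*, *Arr2*, *rdgA* and *rdgB*. They were chosen by name, as signaling components that act after rhodopsin, and not by any measured value, although earlier results of these data were known. All 10 were among the 17490 genes of the count table, and all 10 passed the filter on low counts that left 13536 genes to be tested. The study compared heads of flies lacking *Obp56h*, an odorant binding protein gene, with heads of the control line CSB (Canton S-B), in which the deletion was made with CRISPR/*Cas9*. Females and males of each line gave 4 groups with 2 libraries each, from pools of flies that were 3 to 5 days old, kept in a light-dark cycle and frozen in the early afternoon. The null flies are 1 engineered line, so its effect and that of any other difference between the lines cannot be told apart. The cassette that replaced the gene carried DsRed under *3XP3*, a promoter active in the eye. It was flanked by loxP sites for removal, and whether the sequenced flies still carried it is not given in the sources used here.

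In the fly eye, light turns rhodopsin into its active form, which switches on a Gq protein and through it the phospholipase C encoded by *norpA*. The enzyme splits the membrane lipid phosphatidylinositol bisphosphate, and the cation channels TRP and TRPL open. INAD, a scaffold built of PDZ domains, holds phospholipase C, TRP and the eye protein kinase C (INAC) in 1 complex at the light-sensing membrane. Arrestins bind active rhodopsin and end its signaling, and the lipid that was split is rebuilt with the help of RDGA, a diacylglycerol kinase, and RDGB, a phosphatidylinositol transfer protein. Mutations in several of these genes abolish the light response or cause the photoreceptors to degenerate.

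Library totals ranged from 10127941 counts (CSB female replicate 1) to 25918919 counts (null female replicate 1). The lowest count of any of the 10 genes in any library was 3665, for *inaC*, so counting error was small beside the differences between replicates. The deleted gene had 54 and 90 counts in CSB females and 110 and 106 counts in CSB males, against 1 and 0 in null females and 0 and 0 in null males. CSB female replicate 1 stood apart for the genes described here: all 10 lay below their own means over the 8 libraries, by a median of -0.24 on the log2 scale, and 8 of the 10 had their lowest level there. Other genes shared this: the same library was the lowest for 43.4% of the 5062 genes tested with a mean of at least 20 CPM, and for the summed level of the G protein, lipid cycle, neuron and glia lists described further on. In CSB male replicate 1, 8 of the 10 lay below their means, and *Yp1*, a yolk protein gene of the female fat body, stood at 397 CPM against 4.60 to 11.8 CPM in the other male libraries. Several counts and medians of the 10 genes changed without these libraries, and some of them are given both ways below. Nothing in the sources says how the 2 pools of a group were kept apart before collection, so p-values measure no spread beyond these pools. The edgeR fit also takes part of each gene's spread from the other genes tested, not from its own replicates alone. Heads were sequenced whole, so RNA of photoreceptors and of any other cells of the head was counted together. Fewer photoreceptors and less RNA per photoreceptor cannot be told apart in such data.

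The 10 genes held between 1.85% and 2.24% of all counts in each library. Levels of different genes were compared as CPM (counts of a gene per 1000000 counts, scaled by TMM factors) per kilobase of the gene length in the count table. The arrestins led the order, with *Arr2* at a mean of 3141 CPM per kb and *Arr1* at 1327 CPM per kb over the 8 libraries. The channel gene *trpl* followed at 449, *ninaC* at 411, *inaD* at 373, *trp* at 348 and *norpA* at 343 CPM per kb. The genes *inaC* at 180 CPM per kb, *rdgA* at 157 CPM per kb and *rdgB* at 50.7 CPM per kb came last. The ranges of *Arr2* and *Arr1* over libraries overlapped neither each other nor that of *trpl*. From *trpl* to *norpA* the range of each gene overlapped that of the next, so the spread over libraries was wider than the difference of these neighbors. Read within a library, where shifts of a whole library cancel, *trpl* was above *ninaC* and *ninaC* above *inaD* in 8 of 8, *inaD* was above *trp* in 7 of 8, and *trp* was above *norpA* in 5 of 8. *inaC* was above *rdgA* in 6 of 8 libraries, again with overlapping ranges, while the ranges of *norpA* and *inaC*, and of *rdgA* and *rdgB*, did not overlap.

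**Figure D1:**
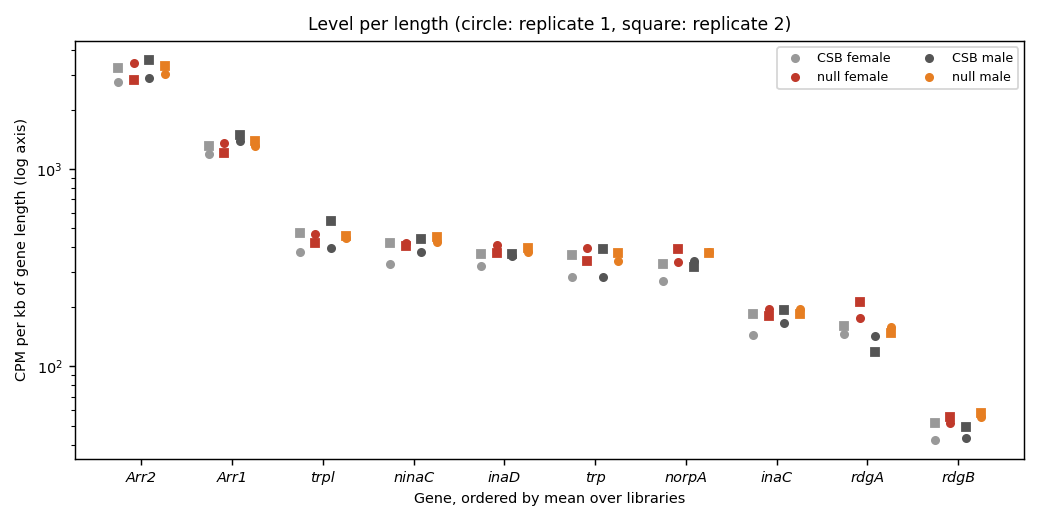
Level of each of the 10 genes in every library, in CPM per kb on a log axis, with genes ordered by their mean over the 8 libraries and points marked by line and sex. *Arr2* (mean 3141) and *Arr1* (mean 1327) lie above all other genes, *trpl*, *ninaC*, *inaD*, *trp* and *norpA* overlap with their neighbors, and *rdgB* (mean 50.7) lies lowest.

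*norpA* encodes the phospholipase C that carries the signal from the G protein to the channels. It lies on chromosome X (BDGP6, 4322626 to 4365408, plus strand, 8296 bp of exons). Its level was 2239 and 2750 CPM in CSB females and 2790 and 3240 CPM in null females. The male level was 2835 and 2643 CPM in CSB and 3144 and 3097 CPM in the null line. Both null libraries were above both CSB libraries in each sex, although in females the nearest values, 2750 and 2790 CPM, were close. The group means were 2495 ± 361 and 3015 ± 318 CPM in females and 2739 ± 136 and 3121 ± 33.1 CPM in males (SD, n = 2 in each). The log2 fold change of null over CSB was 0.27 (SE 0.15) in females, with an adjusted p of 0.523 by edgeR's quasi-likelihood test. The male estimate was 0.19, with an adjusted p of 0.739 by edgeR, so neither difference passed the threshold of 0.05.

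*trp* and *trpl* encode the light-activated cation channels. *trp* lies on 3R (29914521 to 29920289, minus strand, 4149 bp of exons) and *trpl* on 2R (9753697 to 9765518, plus strand, 3893 bp). *trp* stood at 1175 and 1517 CPM in CSB females and 1657 and 1422 CPM in null females. In males it stood at 1175 and 1632 CPM in CSB and at 1421 and 1554 CPM in the null line. Replicate 1 was the lower of the CSB pair in both sexes, and the lines overlapped. *trpl* had 1477 and 1844 CPM in CSB females and 1831 and 1645 CPM in null females. In males it had 1540 and 2120 CPM in CSB and 1729 and 1783 CPM in the null line, so here too each null pair lay inside or overlapped the CSB pair. The log2 fold changes of null over CSB were 0.19 for *trp* and 0.07 for *trpl* in females, and 0.08 and -0.06 in males, with edgeR adjusted p-values from 0.697 to 0.941.

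*inaD* encodes the scaffold of the signaling complex, *inaC* the eye protein kinase C that it binds, and *ninaC* a myosin III with a kinase domain that also binds INAD. *inaD* lies on 2R (22855688 to 22858794, minus strand, 2331 bp of exons), and its exons overlap those of *RpL23* on the other strand by 7 bp. *inaC* lies on 2R (16898535 to 16901575, plus strand, 2351 bp) and *ninaC* on 2L (7377702 to 7384344, plus strand, 5425 bp). *inaD* was measured at 748 and 862 CPM in CSB females and 962 and 876 CPM in null females. Its male levels were 843 and 865 CPM in CSB and 883 and 925 CPM in the null line. The null pair lay above the CSB pair in both sexes, with nearest values of 862 and 876 CPM in females and 865 and 883 CPM in males. *inaC* was at 338 and 430 CPM in CSB females and 458 and 420 CPM in null females. Male levels were 391 and 455 CPM in CSB and 456 and 434 CPM in the null line. These pairs overlapped in both sexes. *ninaC* was at 1796 and 2289 CPM in CSB females and 2290 and 2218 CPM in null females. Male heads had 2063 and 2391 CPM in CSB and 2324 and 2451 CPM in the null line, again with overlap. The log2 fold changes of null over CSB were 0.19, 0.19 and 0.14 for *inaD*, *inaC* and *ninaC* in females (edgeR adjusted p = 0.634, 0.650 and 0.753). In males they were 0.08, 0.07 and 0.10, with edgeR adjusted p-values of 0.891, 0.917 and 0.878.

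*Arr1* and *Arr2* encode the arrestins that bind active rhodopsin. *Arr1* lies on 2L (18078269 to 18081307, plus strand, 2476 bp of exons) and *Arr2* on 3L (8647261 to 8648936, minus strand, 1547 bp). *Arr1* stood at 2965 and 3232 CPM in CSB females and 3336 and 2978 CPM in null females. In males it stood at 3438 and 3678 CPM in CSB and 3232 and 3430 CPM in the null line. It was the only 1 of the 10 genes whose null pair lay below the CSB pair in a sex, in males, where the nearest values were 3430 and 3438 CPM. *Arr2* had 4270 and 5050 CPM in CSB females and 5348 and 4366 CPM in null females. In males it had 4485 and 5539 CPM in CSB and 4694 and 5122 CPM in the null line, so that the lines overlapped. These were the smallest estimates in females, with log2 fold changes of 0.03 for *Arr1* and 0.06 for *Arr2* (edgeR adjusted p = 0.965 and 0.921). In males the estimates were -0.10 and -0.03, with edgeR adjusted p-values of 0.874 and 0.971. Within a library, *Arr2* was 2.09 to 2.57 times *Arr1* per kilobase (mean 2.37), and both lines and both sexes fell in that range.

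*rdgA* encodes the diacylglycerol kinase and *rdgB* the phosphatidylinositol transfer protein of the lipid cycle. Both lie on chromosome X, *rdgA* at 8907068 to 9029476 (plus strand, a span of 122409 bp) and *rdgB* at 13762752 to 13779488 (plus strand, 9281 bp of exons). The count table gives *rdgA* a length of 12982 bp, and the annotation 13764 bp of exons. *rdgA* was at 1894 and 2068 CPM in CSB females and 2287 and 2748 CPM in null females. Males had 1850 and 1537 CPM in CSB and 2049 and 1914 CPM in the null line. The null pair was above the CSB pair in each sex and the female pair above the male pair in each line. *rdgA* had the widest range of the 10 genes, with its highest library 1.79 times its lowest. Its log2 fold change of null over CSB was 0.35 in females (SE 0.15, 95% interval 0.03 to 0.66), the highest of the 10, with an adjusted p of 0.423 by edgeR. The male estimate was 0.23, with an adjusted p of 0.673 by edgeR. *rdgB* stood at 394 and 476 CPM in CSB females and 478 and 514 CPM in null females. In males it stood at 399 and 457 CPM in CSB and 510 and 539 CPM in the null line. Both null libraries were again above both CSB libraries in each sex, in females with 476 and 478 CPM as the nearest values. Its log2 fold change was 0.19 in females (edgeR adjusted p = 0.645) and 0.29 in males, the highest of the 10 there, with an adjusted p of 0.564 by edgeR.

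**Figure D2:**
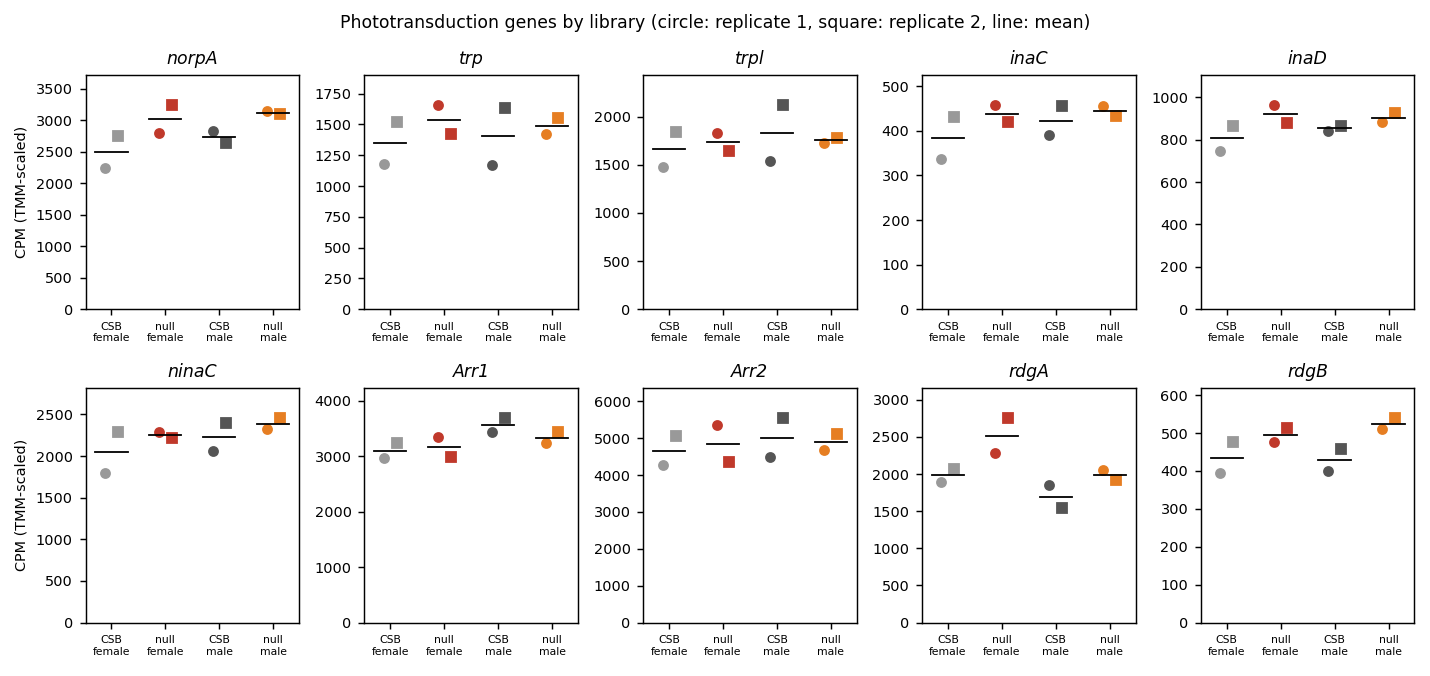
CPM of each of the 10 genes in the 8 libraries, 1 panel a gene with its own axis from 0; points are libraries (circles replicate 1, squares replicate 2) and lines the mean of the 2 libraries of a group. *rdgA* is the gene with the widest range (1537 to 2748 CPM), and for *trp*, *trpl*, *inaC*, *ninaC* and *Arr2* the libraries of the lines overlap in both sexes.

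The comparison of the lines within each sex asked whether loss of *Obp56h* altered the RNA levels of these genes. None of the 10 passed an adjusted p of 0.05 by edgeR in females, where 1.03% of all genes tested did, and none in males, where 0.502% did. Without adjustment, 1 of 10 (*rdgA*) had a p under 0.05 in females, against 10.7% of all genes, and 0 of 10 in males, against 9.15%. The edgeR likelihood ratio test and DESeq2 also called 0 of the 10 in each sex. DESeq2 had 2 of 10 in females and 1 in males with an unadjusted p under 0.05. In females that count was 0 with library size alone and with GeTMM, the study's normalization, and the likelihood ratio test. A filter of at least 10 counts in every library, a fit to the female groups alone and thinning to the lowest depth also gave 0. RLE factors, no filter and a replicate block kept 1. In males RLE factors, that filter, a fit to the male groups alone and thinning gave 1 of 10. All 10 estimates were above 0 in females, where 46.5% of all genes had an estimate above 0, and 7 of 10 in males, where 43.1% did. The count of 10 fell to 6 when CSB female replicate 1 was left out, and the median log2 fold change of the 10 fell from 0.19 to 0.03. Scaling by library size alone moved the median of all genes in the same contrast from -0.03 to -0.14 and left 7 of 10 estimates above 0 in females. In males that scaling moved the median of all genes from -0.05 to -0.14 and left 4 of 10 above 0. The male count was 6 of 10 without CSB male replicate 1 and 9 of 10 without CSB male replicate 2. The male median of the 10 went from 0.08 to 0.04 and to 0.19. The 95% intervals of the fold change, not adjusted for the number of genes, ran from 0.822 at the lowest to 1.58 at the highest over the 10 genes in females. In males they ran from 0.754 to 1.51.

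**Figure D3:**
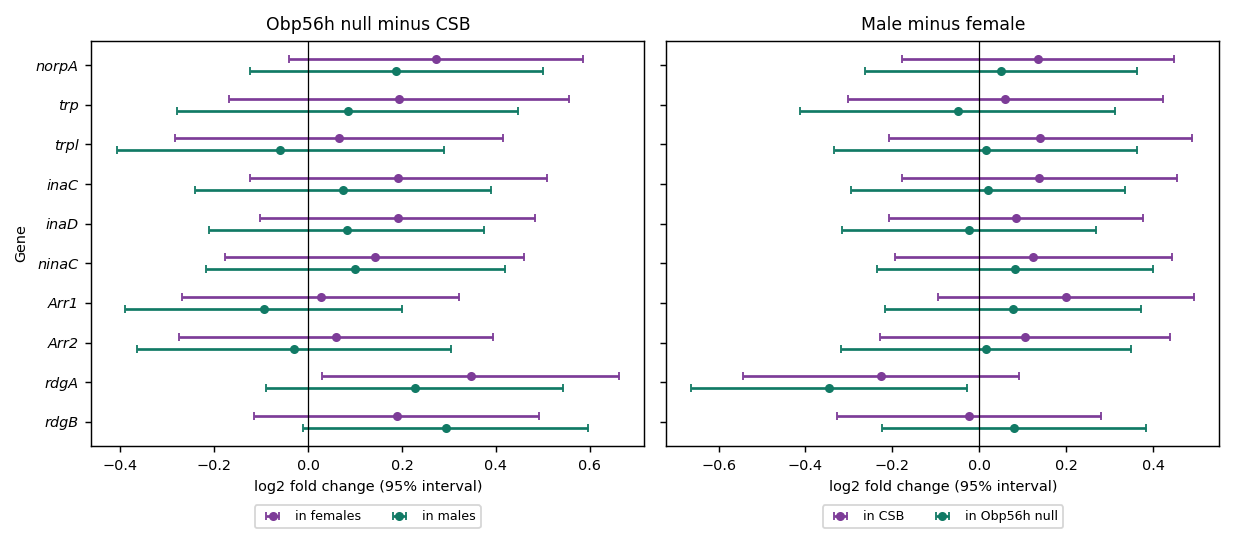
Log2 fold change of null over CSB for each of the 10 genes in females and in males, with 95% intervals that are not adjusted for the number of genes; the line at 0 marks equal levels. All 10 female estimates (0.03 to 0.35) and 7 of 10 male estimates (-0.10 to 0.29) are above 0, and only the female interval of *rdgA* does not include 0.

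The levels of *norpA*, *inaD*, *rdgA* and *rdgB* were higher in both null female libraries than in either CSB female library, which is 4 of 10 against 19.4% of all genes tested. None of the 10 was lower in both null females, against 21.9% of all genes. The same 4 genes were higher in both null libraries of males, against 16.6% of all genes. *Arr1* was lower in both null males, against 24.3% of all genes. The fit across all genes called none of these. The female gaps of *norpA*, *inaD* and *rdgB* were narrower than the difference between the 2 CSB female replicates. In males the gaps of *inaD*, *rdgA*, *rdgB* and *Arr1* were narrower than the difference between the 2 CSB male replicates.

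A change of the genotype effect between the sexes was tested as the male minus the female log2 fold change. The estimates ran from -0.13 (*trpl*) to 0.10 (*rdgB*). None of the 10 passed, against 0.0369% of all genes, none had an unadjusted p under 0.05, against 3.05%, and every edgeR adjusted p rounded to 1.000. The likelihood ratio test and DESeq2 called none either, and neither gave an unadjusted p under 0.05. *rdgB* was the 1 gene of 10 with an estimate above 0, while 47.5% of all genes had one. That count rested on single libraries: it was 8 of 10 without CSB female replicate 1 and 6 of 10 without CSB male replicate 2, and the median of the 10 went from -0.11 to 0.05 and to 0.06. It was 3 of 10 without CSB male replicate 1 or without null female replicate 2, and 2 of 10 without null female replicate 1. The standard errors of these differences, 0.20 to 0.24 on the log2 scale, were as wide as most of the effects they compare.

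Males and females were compared within each line, and these contrasts use the same 8 libraries as the contrasts of the lines. None of the 10 passed in CSB, where 2.9% of all genes did, or in the null line, where 3.19% did, by edgeR. Before adjustment, none passed in CSB (10.3% of all genes) and 1 of 10, *rdgA*, in the null line (11.5%). The likelihood ratio test and DESeq2 gave the same counts of 0 and 1 before adjustment. With GeTMM and the likelihood ratio test, and with no filter, the count in the null line was 0. The other alternatives that kept all libraries left it at 1. Library size alone gave 1 in CSB. *rdgA* was lower in both males of CSB and in both males of the null line. Its log2 fold change of male over female was -0.23 in CSB (edgeR adjusted p = 0.744) and -0.35 in the null line (95% interval -0.66 to -0.03, edgeR adjusted p = 0.361). The next highest absolute estimate was 0.20, of *Arr1* in CSB, with an adjusted p of 0.774 by edgeR. *Arr1* was higher in both males of CSB, and *ninaC* was higher in both males of the null line. Replicates of the sexes did not overlap for 2 of 10 genes in CSB, against 30.6% of all genes, and for 2 of 10 in the null line, against 48%. Estimates of male over female were above 0 for 8 of 10 genes in CSB, against 50.3% of all genes, and for 7 of 10 in the null line, against 48.6%. In CSB the count was 1 of 10 without CSB female replicate 1 and 3 of 10 without CSB male replicate 2, and the median of the 10 went from 0.11 to -0.02 and to -0.05. In the null line it was 3 of 10 without null female replicate 2, and the median went from 0.02 to -0.06. Of the other genes on chromosome X, *norpA* was at 0.13 and *rdgB* at -0.02 in CSB. There the 2085 tested genes of chromosome X had a median of -0.09 and the 11244 autosomal genes one of 0.02. In the null line *norpA* was at 0.05 and *rdgB* at 0.08, where the medians were -0.07 for chromosome X and 0.0006 for autosomes.

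Ratios of the levels per kilobase of a pair of these genes were also read within each library, where a change common to both genes cancels. *rdgA* stood at 0.540 and 0.480 of *norpA* in CSB females and at 0.524 and 0.542 in null females. In males the ratio was 0.417 and 0.372 in CSB and 0.416 and 0.395 in the null line. The 4 female libraries were thus all above the 4 male libraries, and the lines overlapped within each sex. *trpl* stood at 1.34 and 1.30 times *trp* in CSB females and 1.18 and 1.23 times in null females. In males it stood at 1.40 and 1.38 times in CSB and 1.30 and 1.22 times in the null line, so the null pair was lower in each sex. These ratios carry no test. Over all 45 pairs of the 10 genes, 5 separated the sexes in all 8 libraries, each of them a ratio with *rdgA*, and 6 separated the lines in the same direction in both sexes. These are 11.1% and 13.3% of the pairs, below the 20.8% and 17.6% found over all 12809391 pairs of the 5062 genes tested with a mean of at least 20 CPM. The pairs described here were singled out after their values were seen. *norpA* stood at 0.815 to 1.04 of *inaD*, *trp* at 0.783 to 1.06 and *inaC* at 0.447 to 0.521, so that *inaC* was the member of the INAD complex with the lowest RNA level per kilobase in each library.

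**Figure D4:**
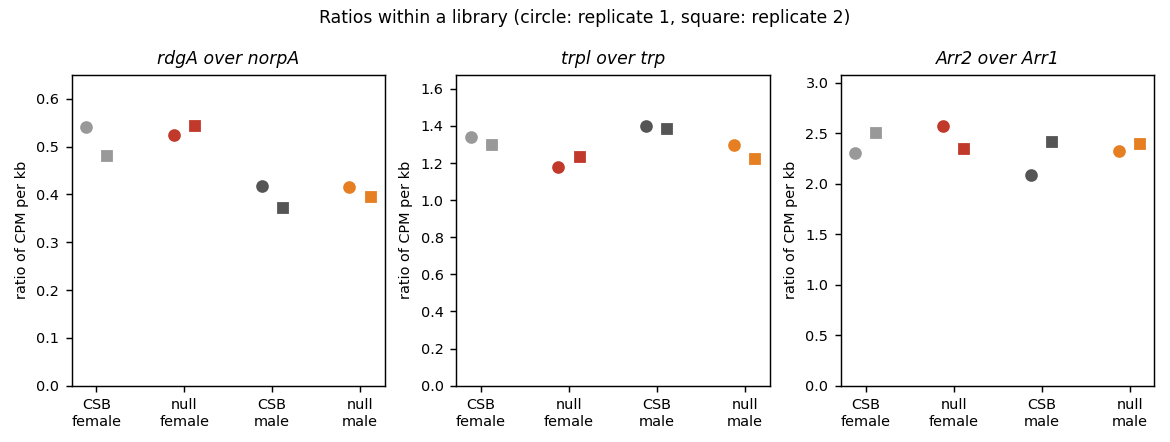
Within-library ratios of levels per kb for pairs of the 10 genes, 1 panel a pair, with a point for each library by group. The ratio of *rdgA* to *norpA* is 0.480 to 0.542 in the female libraries and 0.372 to 0.417 in the male libraries, and *trpl* over *trp* is lower in the null pair than in the CSB pair of each sex.

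The 10 genes varied less over the 8 libraries than most genes. Their coefficients of variation ran from 7.20% to 17.5% with a median of 10.4%, against a median of 19.1% for all genes tested. All 10 are abundant, and abundance was not matched in this description. The median standard error of their log2 fold changes was 0.15 in each contrast of the lines, against 0.22 for all genes. Their summed level was lowest in CSB female replicate 1, at 17296 CPM, next in CSB male replicate 1, at 19020 CPM, and between 20427 and 21437 CPM in the other libraries. Without both of these libraries, 6 of 10 estimates were above 0 in females and 5 of 10 in males. *rdgA* departed from this order, with its lowest level in CSB male replicate 2.

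**Figure D5:**
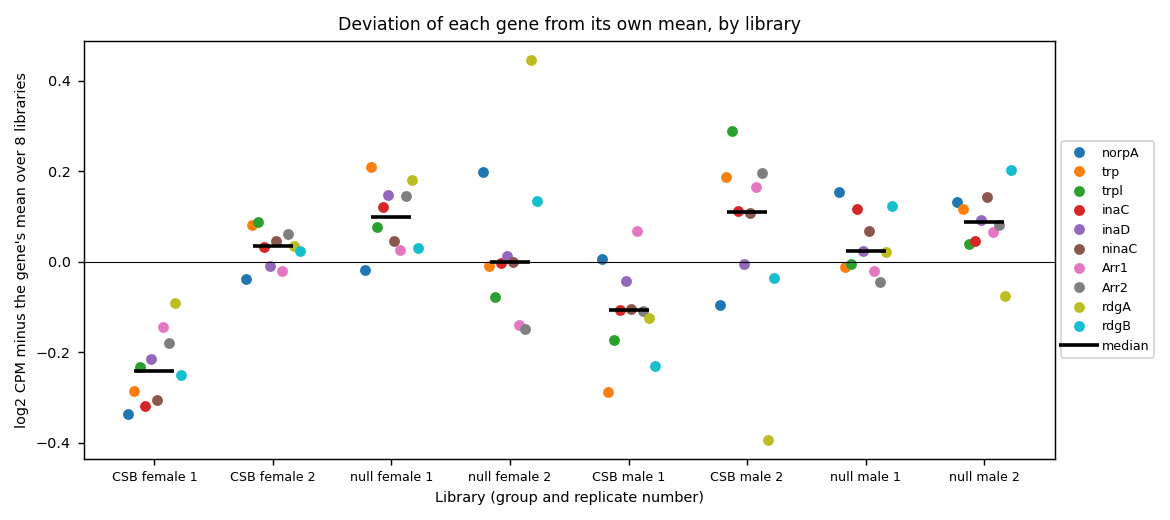
Log2 deviation of each of the 10 genes from its own mean over the 8 libraries, 1 column a library. CSB female replicate 1 is below the mean for all 10 genes (median -0.24), CSB male replicate 1 for 8 of 10, and *rdgA* lies farthest from the other genes in null female replicate 2 and CSB male replicate 2; short lines mark the medians.

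Rhodopsins start the cascade. *ninaE*, the main rhodopsin of the outer photoreceptors, stood at 22653 and 22107 CPM in CSB females and 22548 and 22793 CPM in null females. In males it stood at 20845 and 19883 CPM in CSB and 22165 and 19692 CPM in the null line. *ninaE* did not share the low value of CSB female replicate 1, where *Rh4* had its lowest level, at 245 CPM against 262 to 337 CPM in the other libraries. Over the 6 rhodopsin genes the log2 fold changes of null over CSB had a median of -0.00 in females and -0.01 in males, with 3 of 6 above 0 in each sex. The G protein subunits *Galphaq*, *Gbeta76C* and *Ggamma30A* had a median of 0.19 in females, with 3 of 3 above 0, and 0.10 in males, with 2 of 3. With 14 genes of the lipid cycle and its regulators they formed a list of 23 further genes of the pathway. None of the 23 passed in any of the 5 contrasts by edgeR. Without adjustment 1 had an edgeR p under 0.05 in each contrast of the lines, against 10.7% of all genes in females and 9.15% in males. Estimates above 0 were found for 18 of 23 in females, against 46.5% of all genes, and 16 of 23 in males, against 43.1%. The medians of the 23 were 0.18 and 0.05. CSB female replicate 1 was the lowest library for 3 of 3 G protein genes, 9 of 14 lipid cycle genes and 1 of 6 rhodopsins. The count of 18 was not read without that library. The highest estimates were those of *Gprk1*, a rhodopsin kinase, at 0.36 in females (edgeR adjusted p = 0.417), and of *Cam*, calmodulin, at 0.41 in males (edgeR adjusted p = 0.490). Without CSB male replicate 1 the male estimate of *Cam* was 0.69, with an adjusted p of 0.0238 by edgeR. The lowest were those of *Trpgamma*, a channel gene related to *trp*, at -0.63 in females and -0.47 in males, on 46 to 65 counts a library.

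Marker lists were read for the cell types of the head. The 8 photoreceptor markers, *ninaE* included, summed to between 21156 and 24256 CPM in all libraries, nearly all of it *ninaE*. The other 7 summed to 1152 CPM in CSB female replicate 1 and to between 1433 and 1537 CPM elsewhere, and 6 of these 7 had their lowest level in that library, as 8 of the 10 genes did. Of the 8 photoreceptor markers, 8 had an estimate of null over CSB above 0 in females, against 46.5% of all genes. These ran from 0.02 (*ninaE*) to 0.34 (*eys*, edgeR adjusted p = 0.441). In males 6 of 8 were above 0, against 43.1% of all genes, and the 8 ran from -0.18 (*chp*) to 0.26 (*eys*). The 4 neuron markers summed to 4450 and 5348 CPM in CSB females and 5441 and 6423 CPM in null females. In males they summed to 5244 and 5233 CPM in CSB and 6502 and 6429 CPM in the null line. The sum was higher in both null libraries of each sex, in females with 5348 and 5441 CPM as the nearest values. That female gap was narrower than the difference between the 2 CSB female replicates. All 4 neuron markers had their lowest level in CSB female replicate 1. Estimates were above 0 for 4 of 4 in each sex, against 46.5% of all genes in females and 43.1% in males. They ran from 0.18 (*elav*) to 0.32 (*Syt1*) in females and from 0.19 (*elav*) to 0.38 (*Syt1*) in males, with no call by edgeR. The part of these markers in the estimates of the 10 genes was not tested. The 4 glia markers, with estimates from 0.03 (*repo*) to 0.26 (*nrv2*) in females and -0.12 (*moody*) to 0.11 (*nrv2*) in males, summed to between 2032 and 2649 CPM. Muscle markers summed to between 2207 and 4347 CPM, and *up*, the troponin T gene of muscle, was lower in males of CSB (-0.65, edgeR adjusted p = 0.0395), a call that was lost without any 1 of 7 of the 8 libraries, with estimates from -0.71 to -0.45, and with library size alone (-0.60), GeTMM (-0.65) or a fit to the CSB groups alone (-0.65). The eye pigment cell markers *w*, *st*, *cn* and *v* summed to between 28.4 and 35.9 CPM, with estimates from -2.19 (*cn*) to 0.22 (*st*) in females and -1.50 (*cn*) to 0.16 (*v*) in males. The estimates of *cn* rest on 0 to 10 counts a library, with an SE of 2.05 in females and 1.96 in males.

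The fat body markers summed to between 12284 and 70423 CPM. *Lsp2*, a larval serum protein gene, was higher in null females by 1.85 on the log2 scale (edgeR adjusted p = 0.0104). By DESeq2 its adjusted p was 0.109, with library size alone it was 0.0760, and the edgeR call was lost without CSB female replicate 1 (1.65, adjusted p = 0.361), without CSB female replicate 2 (2.06, adjusted p = 0.0503) and without null female replicate 1 (1.31, adjusted p = 0.0753). The yolk protein genes were lower in males, *Yp1*, *Yp2* and *Yp3* by -5.72, -6.21 and -6.04 in CSB, with edgeR adjusted p-values of 0.00433, 0.00144 and 1.00e-04. The CSB values rest on CSB male replicate 1, and without it they were -11.18, -10.98 and -9.06. In the null line they were lower by -10.45, -10.33 and -8.84, where *FASN1* was lower too (-0.68, edgeR adjusted p = 0.0234). The call of *FASN1* was lost without null female replicate 1 (-0.54), null male replicate 1 (-0.73) or null male replicate 2 (-0.59), and that of *Yp1* in CSB without CSB female replicate 1 (-5.65, edgeR adjusted p = 0.0511). Ovary markers were near 0, at 1.03 to 8.10 CPM in sum, and highest in the first replicates of CSB females and CSB males. Testis markers summed to 3.50 CPM in CSB female replicate 1, 1.81 CPM in CSB male replicate 1 and 0.245 to 0.875 CPM elsewhere. The first CSB replicates, which had the lowest summed level of the 10 genes, thus had the highest sums of the ovary and testis lists, although *dj* was the only testis marker that passed the filter on low counts. Its part in the results was not tested. None of the ovary and testis estimates of null over CSB passed by edgeR. The ovary list ran from -3.36 (*vas*) to -0.90 (*osk*) in females and from -4.36 (*nos*) to -0.93 (*yl*) in males. *dj* of the testis list was at -3.32 in females and -2.57 in males. Counts a library were low, 1 to 23 for *vas*, 12 to 42 for *osk* and 0 to 20 for *nos*. They were 7 to 26 for *yl* and 2 to 28 for *dj*. The SE was 1.42 for *vas* in females, 2.00 for *nos* in males and 1.26 for *dj* in females.

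The genes most like the 10 over the libraries were read from the Pearson correlation of log2(CPM + 1) with their mean over the 8 libraries, among the 5062 genes tested with a mean of at least 20 CPM, and those named lie outside every list. The points share the low value of CSB female replicate 1. The highest were a gene listed as FBgn0267911 and not named in the annotation, at 0.988, then *mask* at 0.985, *GlcAT-S* at 0.982, *CG8677* at 0.982 and *slmb* at 0.979. Of the 10 genes themselves, *ninaC* at 0.955, *inaC* at 0.953, *inaD* at 0.921 and *trp* at 0.905 followed their joint mean most closely, and that mean contains them. *rdgB* was at 0.858, *trpl* at 0.755, *Arr2* at 0.709 and *norpA* at 0.707. *Arr1* at 0.427 and *rdgA* at 0.236 followed it least.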

How the data were processed

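The measurements are RNA-seq counts of whole heads from 8 libraries in 4 groups of 2 (line by sex, as the labels give them). According to the methods of the study, ribosomal RNA was depleted, reads were trimmed, aligned to *Drosophila* release 6 with GSNAP, and unique alignments were counted per gene with Subread by the authors. The strand setting of the counting is not given in the sources used here. The deposited table holds unnormalized counts per gene and a gene length in base pairs. All its columns of sample values were used (0 left out). Of 17490 genes, 17288 had a symbol and position in the Ensembl annotation of BDGP6, the same assembly.

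The counts were fitted with edgeR 4.0.16 (limma 3.58.1, R 4.3.3): filterByExpr with its minimum count of 10 (13536 genes kept), TMM factors, 1 fit over 4 groups, the quasi-likelihood F test, and Benjamini-Hochberg adjustment over all genes tested with a threshold of 0.05. CPM were computed with TMM-scaled library sizes. Per-kilobase levels divide CPM by the deposited length. In counts simulated for 12952 genes with 200 changed, for the contrast of the lines in females, the test recovered 64% of 2-fold and 90% of 4-fold changes, and 7.23% of calls were false. The changed genes were drawn above a floor of expected counts, and no outlying library was simulated. Changes smaller than 2-fold, such as the estimates of the 10 genes, were not simulated, so their recovery is not known. Library totals, from 10127941 to 25918919, set counting error only. The groups of 2, and the spread that the edgeR fit shares among genes, set the precision. Tables and figures were made with Python 3.11.15 and matplotlib 3.10.9.

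The 10 genes and the further lists of the pathway and of cell type markers were chosen with earlier results of these data known. All 10 genes are named. Of every other list, genes that passed in any contrast are named, or otherwise the highest and lowest estimate in each contrast of the lines. The 5 most alike genes had a mean of at least 20 CPM. Alternatives tried were RLE factors, library size alone, the likelihood ratio test, DESeq2 1.42.0, GeTMM (TMM on counts per length) with the likelihood ratio test, no filter, at least 10 counts in every library, fits to the groups of 1 contrast, a replicate block, thinning to the lowest depth, and leaving out libraries. No sequences are printed, since no sequence table or genome was used here.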

Additional observations from a re-analysis of the deposited data

How the results depend on the processing

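None of the 10 genes passed the threshold in any contrast under any alternative, by edgeR or DESeq2, and the lowest adjusted p was 0.0998 (*rdgA*, male over female in the null line, without the first replicates of both CSB groups). *rdgA* kept its sign under each alternative in 4 of the contrasts: 0.23 to 0.49 for null over CSB in females, 0.13 to 0.42 in males, -0.44 to -0.13 for male over female in CSB and -0.44 to -0.21 in the null line. *norpA*, *rdgA* and *rdgB* kept positive estimates of null over CSB in both sexes. Among the estimates of the 10 genes under alternatives, 16 of 190 changed sign for null over CSB in females and 10 of 190 in males. For the difference of these effects 20 of 180 did. For male over female 19 of 190 did in CSB and 13 of 190 in the null line. Thinning to the lowest depth changed no call among the 10 genes.

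Scaling by library size alone gave, for null over CSB in females, -0.044 for *trpl*, -0.088 for *Arr1*, -0.052 for *Arr2*, -0.10 for *ninaE* and -0.078 for *repo*. In males it gave -0.0046 for *trp*, -0.016 for *inaC* and -0.0077 for *inaD*, and left 4 of 10 estimates above 0. For male over female it gave 0.033 for *rdgB* in CSB and 0.028 for *trp* and 0.053 for *inaD* in the null line. With at least 10 counts in every library, the female estimates of null over CSB were -0.021 for *Arr1*, -0.031 for *ninaE* and -0.013 for *repo*. In fits to the groups of 1 contrast they were -0.010, -0.020 and -0.0025. After thinning to the lowest depth they were -0.014 for *Arr1* and -0.019 for *ninaE*, and *inaD* was at 0.0021 for male over female in the null line. The cause was not tested.

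When libraries were left out, the following estimates changed sign, given as the lowest to the highest. A lone library of a group was assumed to vary like the other groups. For null over CSB in females they ran over *trpl* -0.080 to 0.21, *ninaC* -0.017 to 0.30, *Arr1* -0.042 to 0.13, *Arr2* -0.078 to 0.22, *Trpgamma* -1.27 to 0.27, *ninaE* -0.022 to 0.044, *repo* -0.12 to 0.20 and *osk* -1.66 to 0.43. For null over CSB in males they ran over *trp* -0.11 to 0.37, *trpl* -0.24 to 0.22, *inaC* -0.0045 to 0.22, *Arr2* -0.15 to 0.16, *nrv2* -0.00088 to 0.30, *v* -0.076 to 0.37, *cn* -2.47 to 3.998 and *yl* -1.53 to 0.24. For the difference of these effects they ran over *norpA* -0.20 to 0.13, *trp* -0.27 to 0.18, *trpl* -0.28 to 0.15, *inaC* -0.24 to 0.058, *inaD* -0.19 to 0.0025, *ninaC* -0.16 to 0.13, *Arr2* -0.25 to 0.10 and *rdgA* -0.25 to 0.10. For male over female in CSB they ran over *norpA* -0.069 to 0.22, *trp* -0.22 to 0.22, *trpl* -0.13 to 0.30, *inaC* -0.025 to 0.26, *inaD* -0.013 to 0.13, *ninaC* -0.039 to 0.24, *Arr2* -0.082 to 0.19 and *rdgB* -0.15 to 0.052. For male over female in the null line they ran over *norpA* -0.018 to 0.16, *trp* -0.16 to 0.10, *trpl* -0.066 to 0.13, *inaC* -0.047 to 0.12, *inaD* -0.096 to 0.081, *Arr1* -0.0078 to 0.20 and *Arr2* -0.13 to 0.20. The 10 genes had between 6 and 10 estimates above 0 in females, 5 and 9 in males, 1 and 8 for the difference, 1 and 9 for male over female in CSB and 3 and 8 in the null line.

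Counts of all genes past the threshold were 140, 68, 5, 393 and 432 for null over CSB in females and males, the difference of these effects, and male over female in CSB and in the null line. Library size alone gave 91 in females and 2 for the difference. The likelihood ratio test gave 288 in females, 169 in males and 30 for the difference, and DESeq2 236, 120 and 19. GeTMM gave 156 in males and 14 for the difference. No filter gave 416, 279 and 70, and 594 for the sexes of CSB. At least 10 counts in every library gave 1 for the difference. Fits to the groups of 1 contrast gave 338 in females, 28 in males, 203 for the sexes of CSB and 863 for those of the null line. Thinning gave 88, 42 and 1. Leaving libraries out gave 66 to 529 in females, 48 to 769 in males, 1 to 214 for the difference, 148 to 957 in CSB and 196 to 949 in the null line. Of the calls, 57.9% were higher in null females, 48.4% with library size alone, 43.4% by the likelihood ratio test, 46.4% with no filter, 21.2% without CSB female replicate 2 and 68.1% without the first replicates of both CSB groups, and 51.5% were higher in null males, 38.9% with library size alone, 36.1% by the likelihood ratio test, 39.7% with GeTMM, 39.8% with no filter, 61.9% after thinning and 62.4% without CSB male replicate 1. Male over female, 33.8% of calls were higher in CSB and 45.5% with library size alone, and 26.2% and 42.4% in the null line.

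The replicate numbers did not pair the libraries across all groups. Same-numbered libraries deviated together in the CSB groups (r = 0.414 across genes) but not in the other pairs of groups (-0.140 to 0.060). With the replicate number as a block, 0 of the 10 genes passed, and 222 genes passed in females, 128 in males and 18 for the difference. That block gives both lines the same replicate effect, so it cannot describe a pairing in the CSB groups alone.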
